A study of Mus musculus with 16 samples.

Results

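The 10 genes described here, Srebf1, Acly, Acaca, Acacb, Fasn, Scd1, Elovl6, Me1, Thrsp and Pnpla3, encode the transcription factor SREBP1 and enzymes and proteins of fatty acid synthesis that are known as its targets in liver. They were chosen by symbol from a table of 50559 gene symbols. All 10 were among the 18335 genes with enough counts to be tested. The table holds RNA of livers from 16 mice, 4 in each of 4 groups, that addressed how knockdown of ketohexokinase (KHK), the first enzyme of fructose breakdown, differs from inhibition of its kinase activity. The mice were male C57BL/6J, started their diet at 6 weeks of age and were on it for 10 weeks, with treatment in the last 4 weeks. In the LFD group (a low-fat diet, called chow in the deposited labels) and in the HFD group (a high-fat diet), luciferase control siRNA was injected at 10 mg/kg every 2 weeks and methylcellulose was given by gavage 2 times per day. The HFD + siRNA group received the high-fat diet, methylcellulose and KHK siRNA at 20 mg/kg instead of luciferase siRNA. This siRNA carries a GalNAc sugar that directs it to hepatocytes. The HFD + Inhib group received the high-fat diet, the control siRNA and the KHK inhibitor PF-06835919 at 15 mg/kg by gavage. All mice were injected with either saline or insulin minutes before the tissue was taken, and the labels do not say which mouse received which.

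Liver cells make fatty acids from citrate that leaves the mitochondria. ATP citrate lyase (Acly) turns it into acetyl-CoA, the acetyl-CoA carboxylases (Acaca and Acacb) turn acetyl-CoA into malonyl-CoA, and fatty acid synthase (Fasn) builds palmitate from both with NADPH, which malic enzyme (Me1) supplies. Elovl6 lengthens palmitate to stearate, and Scd1 places a double bond in these saturated products. SREBP1 is made as a precursor in the membrane of the endoplasmic reticulum and acts in the nucleus only after cleavage, so that the level of Srebf1 RNA is not a measure of the active protein. The carbohydrate-sensing factor ChREBP (Mlxipl) acts on many of the same genes.

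Levels are normalized CPM, the usual measure of a gene's share of its library, with the libraries scaled by TMM. The libraries held between 24317111 and 35820234 counts (median 29570114). Differences are log2 fold changes with their standard errors from edgeR's quasi-likelihood test in 1 fit of the 16 libraries, and a gene is said to have risen or fallen where the Benjamini-Hochberg adjusted p over all 18335 genes was under 0.05. The labels number the libraries of a group from 1 to 4, and p-values measure the spread between these samples. In bulk liver, fewer cells of a type and less RNA per cell cannot be told apart. The log2 fold changes of 8232 well-expressed genes, which are not independent, were correlated with their GC content to an extent that differed between comparisons, with Spearman coefficients of -0.52 for HFD against LFD, 0.49 for the siRNA against HFD and -0.28 for the inhibitor against HFD. The coefficients were -0.53 for the inhibitor against the siRNA, -0.56 for the inhibitor against LFD and -0.08 for the siRNA against LFD. Counts per gene do not separate the transcripts for SREBP-1a and SREBP-1c.

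Khk itself, the target of the siRNA, was at 214, 233, 349 and 269 CPM in the LFD libraries and at 251, 322, 233 and 251 CPM in the HFD libraries. In the HFD + siRNA libraries it was at 11.8, 9.14, 18.1 and 11.5 CPM, and in the HFD + Inhib libraries at 112, 152, 94.6 and 120 CPM. The 4 HFD + siRNA libraries therefore had the low Khk level that their label calls for. The 4 HFD + Inhib libraries also lay below all HFD libraries. The LFD and HFD ranges overlapped, so Khk does not check the diet labels. Khk fell 20.9-fold with the siRNA (adjusted p = 1.9e-08) and 2.21-fold with the inhibitor (adjusted p = 7.5e-04, edgeR with Benjamini-Hochberg adjustment), each relative to HFD. The liver label was checked against Alb, Apoa1, Ttr, Cps1 and Tat, 5 genes of hepatocytes, which summed to between 36492 and 86044 CPM per library. These sums averaged 73596 ± 8566 CPM in LFD livers and 63674 ± 6482 CPM in HFD livers (SD, n = 4). With KHK siRNA they averaged 68206 ± 5000 CPM, and with the inhibitor 38950 ± 1723 CPM. Of the 5, Alb, the most abundant, Ttr and Cps1 fell with the inhibitor against HFD, Apoa1 did not pass (-0.27 ± 0.15), and Tat had 735 ± 282 CPM against 623 ± 155 and did not pass. The lower hepatocyte sum in all 4 HFD + Inhib libraries moved with every result of that group below, and its part in those results was not tested.

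Among the HFD libraries, replicate 2 stood apart for these genes. It held the highest level of its group for 9 of the 10 genes, all but Scd1, whereas it was the highest of the 4 HFD libraries for 28.9% of all genes tested. Its level was 1.13 times the mean of the other 3 HFD libraries for Srebf1, 2.08 times for Fasn and 3.64 times for Pnpla3. Markers of cell types moved with it. Its hepatocyte sum was 54036 CPM, against 65691 to 67653 CPM in the other 3 HFD libraries, and the adipocyte gene Cfd was at 6.70 CPM, against 0.797 to 1.79 CPM. Of 6 adipocyte genes (Adipoq, Lep, Plin1, Cfd, Retn and Adrb3), none was at 0 counts in replicate 2. In each other HFD library, 3 or 4 of them were at 0. The part of these markers in the results that rest on this library was not tested. Where leaving it out changed a printed count for the 10 genes or a list in a comparison with HFD, the count without it follows.

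To show where known control elements lie, the 200 bases before the transcription start were read for 3 genes from the RefSeq promoter table of GRCm38.p6: the start of Srebf1 that lies furthest downstream, Fasn, and Acacb, which of the 10 genes had the largest log2 fold change of all comparisons below, that between HFD + Inhib and HFD + siRNA. Capitals mark the CCAAT box (letters CCAAT, the site of NF-Y, a factor that works with SREBPs) and the GC box (letters GGGCGG, the site of Sp1), each read on both strands. In Fasn, a pair of CCAAT boxes on opposite strands overlap.
Srebf1, minus strand, chr11:60210472-60210671: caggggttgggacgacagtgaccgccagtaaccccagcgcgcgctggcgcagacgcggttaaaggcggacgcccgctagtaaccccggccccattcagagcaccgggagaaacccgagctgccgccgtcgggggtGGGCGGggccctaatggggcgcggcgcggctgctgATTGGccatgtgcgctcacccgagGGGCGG
Fasn, minus strand, chr11:120824548-120824747: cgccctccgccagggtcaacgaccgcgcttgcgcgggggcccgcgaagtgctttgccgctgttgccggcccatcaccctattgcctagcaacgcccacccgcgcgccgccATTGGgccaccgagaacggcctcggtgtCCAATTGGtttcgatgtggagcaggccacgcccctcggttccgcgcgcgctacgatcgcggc
Acacb, plus strand, chr5:114165318-114165517: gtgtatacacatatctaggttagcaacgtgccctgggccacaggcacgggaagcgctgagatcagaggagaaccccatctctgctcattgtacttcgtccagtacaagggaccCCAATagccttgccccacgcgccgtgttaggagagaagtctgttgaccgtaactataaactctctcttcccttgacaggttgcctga

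The table held 9 of the 10 genes, with 12 windows from 250 bases before to 50 after a start. The CCAAT box was in 8 of the 12 windows, beside 37.4% of all 32851 windows of this length in the table, and these 8 belong to 7 genes (Srebf1, Acly, Acacb, Fasn, Me1, Thrsp and Pnpla3). The GC box was in 5 of the 12 windows, which belong to 4 genes, beside 35.7% of all windows. The letters TCACNCCAC of a sterol regulatory element and the letters CACGTG of an E-box were in none of the 12 windows, beside 1.24% and 7.15% of all windows. At shares this low, finding none in 12 windows does not set these genes apart. Elements that differ from these exact letters, or lie outside the windows, were not searched for. A match describes the letters of a window and is not a measured site.

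The enzymes of fatty acid synthesis were lowest with KHK siRNA and Srebf1 was not. Summed over the 10 genes, they took 1.29% ± 0.358 of all counts in LFD livers and 1.27% ± 0.406 in HFD livers (SD, n = 4). This share was 0.352% ± 0.0334 with KHK siRNA and 1.99% ± 0.393 with the inhibitor. The lowest HFD library stood at 0.761% and the highest HFD + siRNA library at 0.392%, so these groups did not overlap. The lowest HFD + Inhib library was at 1.61% and the highest HFD library at 1.60%. Scd1 alone made up most of these sums, with 1.02%, 0.919%, 0.211% and 1.64% of all counts in the 4 groups in the same order.

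In HFD + siRNA versus HFD, 8 of the 10 genes fell and none rose, beside 6.55% of all genes tested that fell and 5.20% that rose. The 8 were Acaca, Acacb, Fasn, Scd1, Elovl6, Me1, Thrsp and Pnpla3, and Srebf1 and Acly did not pass the test. The median log2 fold change was -1.63, beside 0.02 over all genes tested, and for 7 of the 10 genes every HFD + siRNA library lay below every HFD library, beside 10.4% of all genes tested. Without HFD replicate 2, 6 of the 10 fell (5.92% of all genes did), the median was -1.32, and the adjusted p was 0.091 for Thrsp and 0.12 for Pnpla3.

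In HFD + Inhib versus HFD, 3 of the 10 genes rose (Acacb, Scd1 and Me1) and none fell, beside 9.80% of all genes tested that rose and 8.42% that fell. The median log2 fold change was 0.12 (0.47 without HFD replicate 2), beside -0.0044 over all genes. In HFD versus LFD, Elovl6 rose and Acacb fell, beside 9.58% of all genes that rose and 8.80% that fell, with a median of 0.25 over the 10 genes. When HFD replicate 2 was left out, Acacb fell, Elovl6 did not pass the test and the median was -0.02. These 3 comparisons share the HFD libraries. Set against each other, HFD + Inhib was higher than HFD + siRNA for 8 of the 10 genes, the same 8 that fell with the siRNA, and lower for none, beside 17.3% and 16.6% of all genes tested. Against LFD, 7 of the 10 genes were lower in HFD + siRNA, all but Srebf1, Thrsp and Pnpla3, and none was higher (3.88% of all genes were lower and 4.75% higher). In HFD + Inhib, Elovl6, Me1 and Thrsp were higher than in LFD and none was lower, beside 18.8% of all genes that were higher and 18.2% that were lower.

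**Figure D1:**
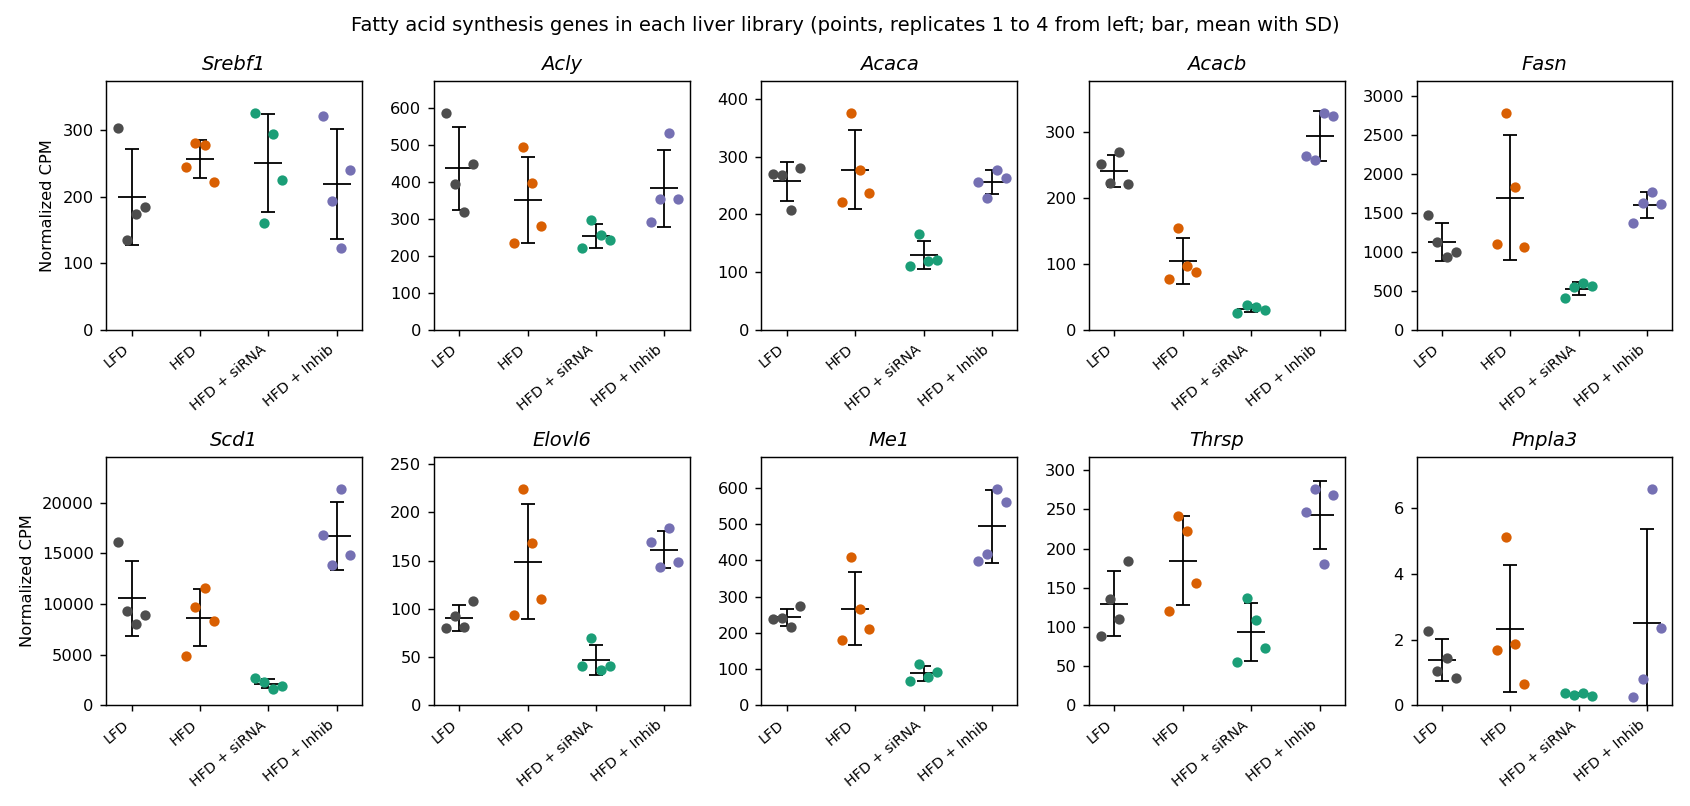
Level of each of the 10 genes in every liver library (normalized CPM, linear axes from 0) by group. Points are the libraries, replicates 1 to 4 from left to right, and bars give the mean with the SD of 4 libraries. The HFD + siRNA libraries lie below all HFD libraries for 7 genes, and Srebf1 overlaps in all groups.

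Srebf1 was at 302, 135, 174 and 185 CPM in the LFD libraries and at 244, 281, 277 and 222 CPM in the HFD libraries. It was at 325, 160, 294 and 224 CPM in the HFD + siRNA libraries and at 320, 193, 123 and 241 CPM in the HFD + Inhib libraries. Every group overlapped every other, and replicate 1 held the highest level in 3 of the 4 groups. The means were 199 ± 72.1 CPM for LFD and 256 ± 28.0 CPM for HFD (SD, n = 4), and 250 ± 73.7 CPM with the siRNA and 219 ± 82.8 CPM with the inhibitor. HFD differed from LFD by a log2 fold change of 0.37 ± 0.28 (SE), with an adjusted p of 0.38 in edgeR's test. Leaving out 1 library moved this to between 0.22 and 0.65, without a call. With the replicate number as a block and offsets for GC content and transcript length it was 0.64 and passed (adjusted p = 0.044, edgeR). For the siRNA against HFD the difference was -0.03 ± 0.28, with a 95% interval from -0.62 to 0.55, the range of changes that these libraries leave possible. For the inhibitor against HFD it was -0.22 ± 0.28 (95% interval from -0.81 to 0.36). In the fit without block or offsets, Srebf1 passed the test in none of the 6 comparisons, and its smallest adjusted p among them was 0.38. Replicate 3 of HFD + Inhib had the lowest Srebf1 of all 16 libraries and at the same time the highest Scd1.

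The first steps, to acetyl-CoA and malonyl-CoA, behaved differently for the 3 enzymes. Acly was at 585, 394, 318 and 448 CPM in LFD, at 235, 493, 397 and 281 in HFD, at 221, 297, 256 and 242 in HFD + siRNA and at 291, 354, 532 and 354 in HFD + Inhib. The HFD + siRNA libraries reached from just below the HFD range into its lower part. Against HFD, the log2 fold change of Acly was -0.47 ± 0.23 with the siRNA (adjusted p = 0.20) and 0.12 ± 0.23 with the inhibitor (adjusted p = 0.77, edgeR). Without HFD replicate 2 these were -0.26 ± 0.22 and 0.33 ± 0.23, and neither passed. Against LFD, Acly fell in HFD + siRNA by 0.78 ± 0.23 (adjusted p = 0.0456 in edgeR). The call was lost in 7 of the 8 fits that left out 1 library. It was also lost with the replicate number as a block (-0.82, adjusted p = 0.052, edgeR).

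Acaca, the carboxylase whose malonyl-CoA feeds fatty acid synthesis in the cytosol, was at 270, 269, 208 and 280 CPM in LFD and at 221, 375, 277 and 237 CPM in HFD. It was at 111, 165, 119 and 121 CPM in HFD + siRNA and at 256, 229, 278 and 262 CPM in HFD + Inhib. All 4 HFD + siRNA libraries lay below the 12 others, which overlapped. Acaca fell 2.15-fold in HFD + siRNA versus HFD (log2 fold change -1.10 ± 0.16, adjusted p = 8.1e-04 by edgeR). Of its words of 50 bases, 29.2% also occur in the gene Gm5182, so that its count depends in part on how reads were divided between these genes.

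Acacb, the carboxylase at the outer mitochondrial membrane, whose malonyl-CoA restrains the entry of fatty acids for oxidation, had levels that differed between most groups. It was at 251, 222, 269 and 221 CPM in LFD, at 77.5, 155, 96.5 and 87.2 CPM in HFD, at 25.9, 37.9, 35.0 and 29.7 CPM in HFD + siRNA and at 264, 258, 328 and 324 CPM in HFD + Inhib. The HFD libraries lay below all LFD libraries, the HFD + siRNA libraries lay below all HFD libraries, and the HFD + Inhib libraries overlapped with LFD. Acacb was the only one of the 10 genes that passed the test in each of the comparisons HFD versus LFD, HFD + siRNA versus HFD and HFD + Inhib versus HFD. It fell 2.31-fold in HFD versus LFD (adjusted p = 5.3e-04), fell 3.24-fold in HFD + siRNA versus HFD (adjusted p = 8.5e-05) and rose 2.82-fold in HFD + Inhib versus HFD (adjusted p = 3.2e-05, edgeR). Between HFD + Inhib and HFD + siRNA the difference was 9.13-fold, whereas in HFD + siRNA versus HFD Pnpla3 and Scd1 had larger fold changes than Acacb. HFD + Inhib and LFD differed by a log2 fold change of 0.29 ± 0.18 (95% interval from -0.09 to 0.66, adjusted p = 0.22), and with offsets for GC content and transcript length by 0.68, which passed (adjusted p = 0.0092, edgeR). Without HFD replicate 2, which at 155 CPM was the highest HFD library, the log2 fold changes were -1.47, -1.44 and 1.75 in these 3 comparisons against or with HFD, and all 3 still passed.

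**Figure D2:**
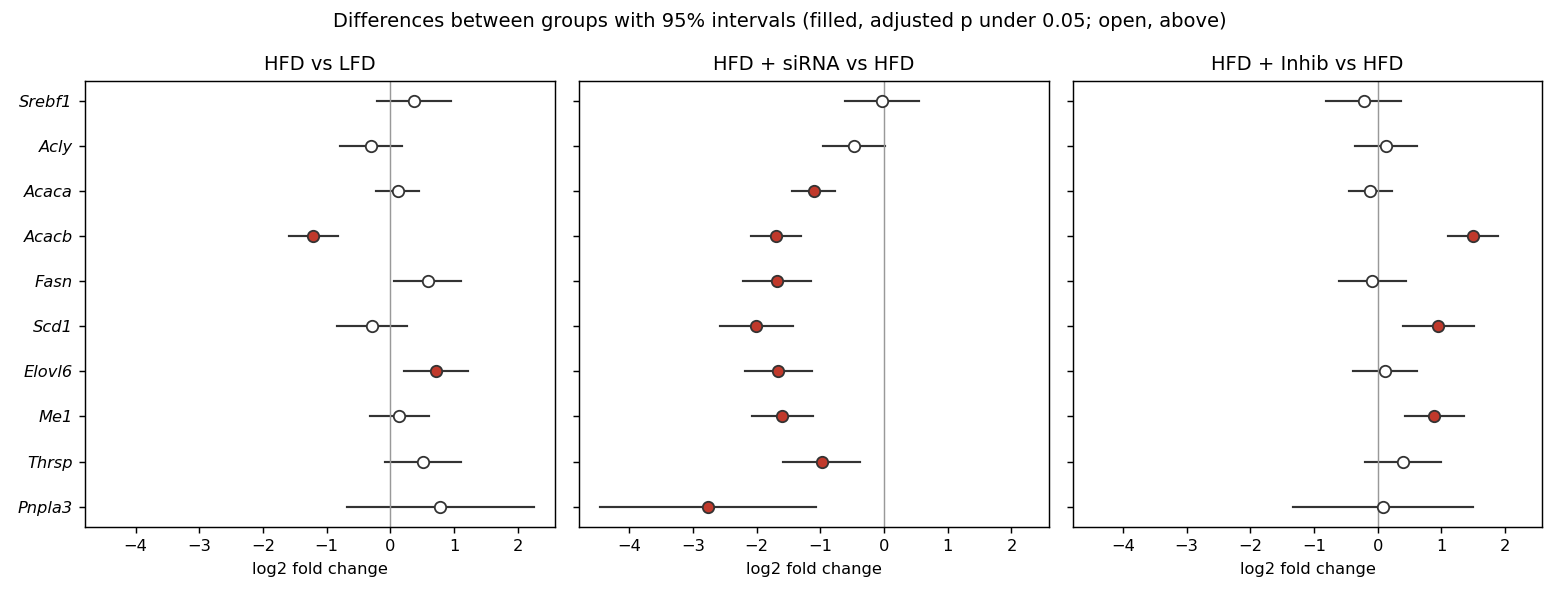
Log2 fold change of each gene in HFD versus LFD, HFD + siRNA versus HFD and HFD + Inhib versus HFD. Points are estimates from the edgeR fit of 16 libraries, lines are 95% intervals, and filled points have an adjusted p under 0.05. Acacb is filled in all 3 panels and Srebf1 in none.

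Fasn was at 1471, 1121, 931 and 992 CPM in LFD and at 1104, 2776, 1835 and 1066 CPM in HFD. It was at 405, 544, 602 and 566 CPM in HFD + siRNA and at 1376, 1632, 1772 and 1612 CPM in HFD + Inhib. The HFD libraries spread over a 47.4% coefficient of variation, against 16.2% in HFD + siRNA and 10.3% in HFD + Inhib, and replicates 2 and 3 were the high ones. Fasn fell 3.20-fold in HFD + siRNA versus HFD (log2 fold change -1.68 ± 0.25, adjusted p = 1.1e-03). Leaving out HFD replicate 2 gave a log2 fold change of -1.34 ± 0.20. HFD and LFD differed by 0.59 ± 0.25 on the log2 scale (adjusted p = 0.11), and by 0.24 ± 0.20 without HFD replicate 2. With offsets for GC content and transcript length this difference was 0.81 and passed the test (adjusted p = 0.032). In HFD + Inhib versus HFD it was -0.08 ± 0.25 (95% interval from -0.61 to 0.44). Without HFD replicate 2 it turned to 0.26 ± 0.20 and with offsets to 0.12, and neither passed.

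Scd1, the stearoyl-CoA desaturase, was the most abundant of the 10 genes per length of transcript, with 2187 CPM per kilobase in LFD and 1787 in HFD. In the same HFD libraries Fasn had 169, Thrsp 132, Me1 80.9, Acly 79.4, Srebf1 59.6, Acaca 29.2, Elovl6 25.03, Acacb 11.8 and Pnpla3 1.78 CPM per kilobase. Scd1 was at 16079, 9286, 8030 and 8883 CPM in the LFD libraries and at 4915, 9687, 11596 and 8341 CPM in the HFD libraries. It was at 2718, 2282, 1630 and 1953 CPM in HFD + siRNA and at 16845, 13815, 21325 and 14855 CPM in HFD + Inhib. LFD and HFD overlapped, all HFD + siRNA libraries were below and all HFD + Inhib libraries above the HFD range. Scd1 fell 4.02-fold in HFD + siRNA versus HFD (adjusted p = 4.3e-04) and rose 1.94-fold in HFD + Inhib versus HFD (adjusted p = 0.018, edgeR). The rise was no longer called without HFD replicate 1 or without HFD + Inhib replicate 3, with an adjusted p of up to 0.056. Between the treatments the difference was 7.79-fold.

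Elovl6, the elongase that makes stearate, was at 80.1, 92.6, 81.5 and 109 CPM in LFD and at 93.4, 224, 168 and 110 CPM in HFD. It was at 41.3, 70.2, 36.4 and 40.8 CPM in HFD + siRNA and at 170, 143, 184 and 149 CPM in HFD + Inhib. The LFD and HFD ranges overlapped, the HFD + siRNA libraries lay below both, and the HFD + Inhib libraries lay above all LFD libraries. Elovl6 rose 1.64-fold in HFD versus LFD (adjusted p = 0.048), fell 3.16-fold in HFD + siRNA versus HFD (adjusted p = 9.8e-04) and was 1.78-fold higher in HFD + Inhib than in LFD (adjusted p = 0.013). The first of these was lost in 5 of the 8 fits that left out 1 library. When HFD replicate 2 was left out, its log2 fold change was 0.45 ± 0.22 (adjusted p = 0.18 in edgeR), and with offsets for GC content and transcript length 0.61 (adjusted p = 0.070).

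Me1, malic enzyme of the cytosol, was at 237, 242, 217 and 274 CPM in LFD and at 181, 408, 266 and 210 CPM in HFD. It was at 66.9, 114, 78.8 and 93.2 CPM in HFD + siRNA and at 399, 417, 596 and 561 CPM in HFD + Inhib. The HFD + siRNA libraries lay below all others, and of the HFD libraries only replicate 2 reached the HFD + Inhib range. Me1 fell 3.02-fold in HFD + siRNA versus HFD (adjusted p = 6.0e-04), rose 1.85-fold in HFD + Inhib versus HFD (adjusted p = 9.7e-03) and was 2.03-fold higher in HFD + Inhib than in LFD (adjusted p = 1.9e-03, edgeR). Without HFD replicate 2, the log2 fold change in HFD + Inhib versus HFD was 1.17 ± 0.19. Of its words of 50 bases, 21.1% also occur in Gm7049, so that its count too depends in part on how reads were divided. Gm7049 itself had means of 6.46 CPM for LFD, 5.96 for HFD, 2.33 with the siRNA and 12.9 with the inhibitor.

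Thrsp, the lipogenic protein Spot 14, was at 88.0, 135, 111 and 185 CPM in LFD, at 120, 242, 222 and 156 CPM in HFD, at 54.8, 137, 109 and 73.9 CPM in HFD + siRNA and at 247, 276, 180 and 269 CPM in HFD + Inhib. Replicate 2 of HFD + siRNA reached the HFD range. Thrsp fell 1.97-fold in HFD + siRNA versus HFD (adjusted p = 0.034), a call that was lost in 5 of the 8 fits that left out 1 library. Against LFD, it was 1.87-fold higher in HFD + Inhib (adjusted p = 0.019, edgeR), which was lost without LFD replicate 1 and without LFD replicate 3 (adjusted p of up to 0.064).

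Pnpla3, a lipid droplet protein, was the lowest of the 10 genes. It was at 2.26, 1.04, 1.43 and 0.824 CPM in LFD, at 1.69, 5.11, 1.86 and 0.665 CPM in HFD, at 0.380, 0.328, 0.384 and 0.293 CPM in HFD + siRNA and at 0.247, 0.816, 6.57 and 2.37 CPM in HFD + Inhib. The HFD + siRNA values rest on 9 to 12 counts per library, and in HFD + Inhib the counts ranged from 7 to 203. Pnpla3 fell 6.80-fold in HFD + siRNA versus HFD (log2 fold change -2.77 ± 0.80, adjusted p = 0.034 in edgeR). This call was lost in 6 of the 8 fits that left out 1 library, among them that without HFD replicate 2 (-2.02 ± 0.79). It was also lost with the replicate number as a block (-2.69, adjusted p = 0.051, edgeR). The 7.23-fold difference of Pnpla3 between HFD + Inhib and HFD + siRNA (log2 fold change 2.85) was lost without HFD + Inhib replicate 3. There the log2 fold change was 1.74 and the adjusted p was 0.079 (edgeR).

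Within groups, some libraries held the extreme for many of the 10 genes. HFD replicate 1 was the lowest HFD library for 7 of the 10 genes. HFD + siRNA replicate 1 was the lowest of its group for 6 and replicate 2 the highest for 6. HFD + Inhib replicate 3 was the highest for 8. The share over all genes was taken only for HFD replicate 2, so these counts are a description. Srebf1 was at its lowest of the group in both HFD + siRNA replicate 2 and HFD + Inhib replicate 3, and at its highest in HFD replicate 2 and in LFD replicate 1, which was the highest LFD library for 5 of the 10 genes. Over the 16 libraries, the Pearson correlation of log2 CPM between Srebf1 and each of the 9 other genes lay between -0.31 and -0.03. Between the 8 genes other than Srebf1 and Pnpla3 it lay between 0.42 and 0.93 over 28 pairs. Pnpla3, which rests on few counts, correlated with these 8 genes between 0.36 (Thrsp) and 0.76 (Fasn). These correlations share the libraries and the differences between the groups, and are given as a description.

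**Figure D3:**
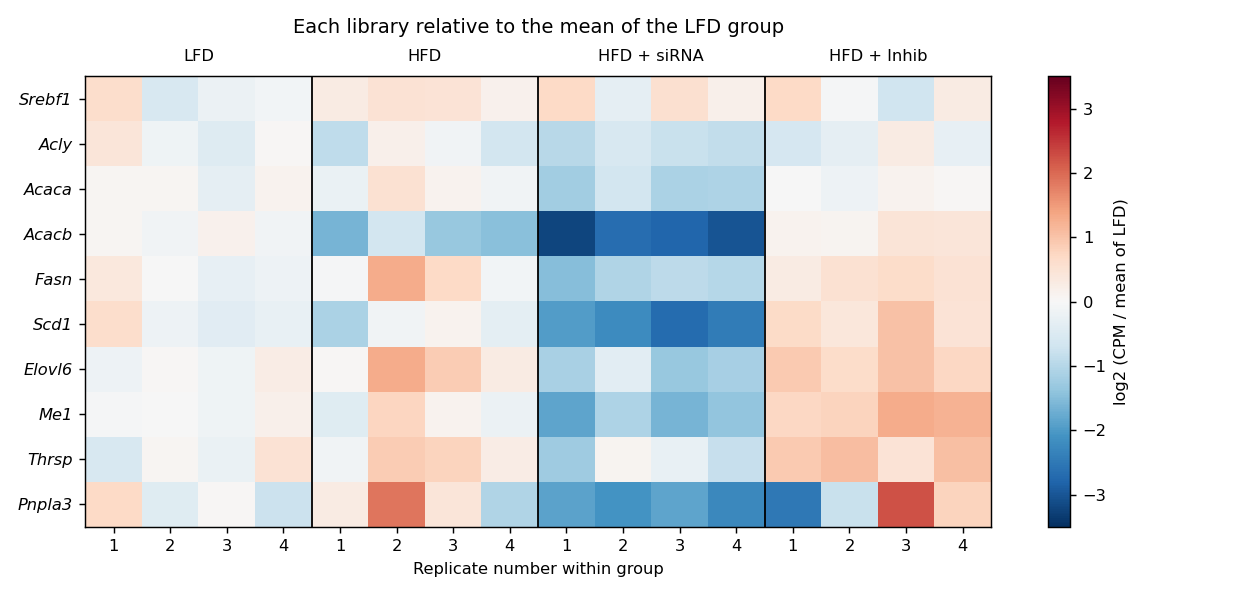
Level of each gene in each library as the log2 ratio of its CPM to the mean of the LFD group, on a colour scale centred at 0. Columns are libraries in the order of their replicate numbers. The HFD + siRNA columns are blue for every gene but Srebf1 and single values near the LFD mean for Thrsp, and HFD replicate 2 is the reddest HFD column for 9 genes.

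Lists of genes that control SREBP1 or lie beside it in the pathway were read in the same fit. Their counts stand beside the shares over all genes tested given above. These were 6.55% lower and 5.20% higher with the siRNA, 8.42% and 9.80% with the inhibitor, and 8.80% and 9.58% in HFD versus LFD. Without HFD replicate 2 they were 5.92% and 4.17%, 6.03% and 7.95%, and 7.36% and 8.14%, in the same order. Of 14 genes for control of SREBP1, 1 fell in HFD + siRNA versus HFD and none rose (median log2 fold change 0.12). The one was Insig1, which holds the SREBP precursor in the endoplasmic reticulum and is itself an SREBP target. Its means were 362 ± 57.5 CPM for LFD, 518 ± 90.5 for HFD, 245 ± 47.0 with the siRNA and 537 ± 94.0 with the inhibitor (SD, n = 4), and it fell by 1.08 ± 0.17 on the log2 scale with the siRNA (adjusted p = 1.5e-03, edgeR). With the inhibitor, Usf1 fell (-0.48 ± 0.11) and no other of the 14 passed. In HFD versus LFD, 4 fell and 2 rose (4 and 0 without HFD replicate 2), among the former Mlxipl, which encodes ChREBP (-0.62 ± 0.12), and Scap, the escort of the SREBP precursor (-0.71 ± 0.15). Mlxipl had means of 385 ± 64.7 CPM for LFD, 250 ± 29.8 for HFD, 247 ± 14.2 with the siRNA and 254 ± 31.2 with the inhibitor.

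Of 9 partners of fatty acid synthesis, none fell with the siRNA and Mid1ip1, the paralog of Thrsp, rose by 0.67 ± 0.21 on the log2 scale (adjusted p = 0.044, edgeR). With the inhibitor 3 of the 9 rose, among them Acss2, which makes acetyl-CoA from acetate (1.14 ± 0.27), and Mlycd, which degrades malonyl-CoA (0.70 ± 0.16). The count was 4 of the 9 without HFD replicate 2. Acss2 fell by 0.98 ± 0.27 on the log2 scale in HFD versus LFD. Of 5 genes that supply NADPH by other routes, none fell with the siRNA, where Mthfd1 rose by 0.25 ± 0.08, and with the inhibitor Idh1 rose by 0.45 ± 0.11 as the only one (2 of the 5 rose without HFD replicate 2). In HFD versus LFD, G6pdx, H6pd and Mthfd1 fell and none of the 5 rose. Without HFD replicate 2, none of the partners and none of the NADPH genes passed the test in HFD + siRNA versus HFD.

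Of 13 other genes of elongation and desaturation, 2 fell and 2 rose with the siRNA and 7 rose with the inhibitor (median log2 fold change 0.64). Elovl5, an elongase of polyunsaturated fatty acids, had means of 386 ± 35.8 CPM for LFD, 744 ± 202 for HFD, 380 ± 29.0 with the siRNA and 1275 ± 244 with the inhibitor. Like Elovl6, it fell with the siRNA. The rise of Elovl6 with the diet was lost without HFD replicate 2, and that of Elovl5 was not. Elovl5 rose in HFD versus LFD (0.95 ± 0.17), fell in HFD + siRNA versus HFD (-0.97 ± 0.17) and rose in HFD + Inhib versus HFD (0.78 ± 0.17). Elovl3, an elongase of saturated and monounsaturated fatty acids, did the opposite under the diet and the siRNA. It fell by 2.18 ± 0.48 on the log2 scale in HFD versus LFD (adjusted p = 6.1e-03), rose by 1.97 ± 0.47 with the siRNA (adjusted p = 0.014) and rose by 1.44 ± 0.47 with the inhibitor (adjusted p = 0.042, edgeR). Hsd17b12 (0.87 ± 0.11) and Hacd3 (0.75 ± 0.08), which act in the elongation cycle beside the elongases, rose with the inhibitor. Without HFD replicate 2, 6 of the 13 rose with the inhibitor, and 2 fell and 2 rose with the siRNA.

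Of 4 genes of glycerolipid synthesis that SREBP1 is known to act on, Gpam (-0.69 ± 0.14) and Lpin1 (-1.07 ± 0.31) fell with the siRNA and none rose. With the inhibitor Dgat2 fell (-0.69 ± 0.14) and Agpat2 rose (0.67 ± 0.17), and 2 of the 4 rose without HFD replicate 2. Of 18 genes of sterol synthesis and uptake, targets of the related factor SREBP2, none passed the test with the siRNA (median -0.03, and 0.20 without HFD replicate 2), 1 had an unadjusted p under 0.05, and the smallest adjusted p was 0.11 for Sc5d in the test of edgeR. With the inhibitor 6 of the 18 rose and none fell (median 0.66), among them Pmvk (0.997 ± 0.255) and Dhcr7 (0.70 ± 0.20). The count was 5 of the 18 without HFD replicate 2, with a median of 0.83. Of 7 genes that ChREBP is known to act on, Khk among them, 3 fell with the siRNA (2 without HFD replicate 2) and 4 with the inhibitor. Pklr, pyruvate kinase of the liver, fell by 1.29 ± 0.23 on the log2 scale with the siRNA and by 1.93 ± 0.24 with the inhibitor, and so fell in both treated groups, unlike the 10 genes, none of which fell with the inhibitor.

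**Figure D4:**
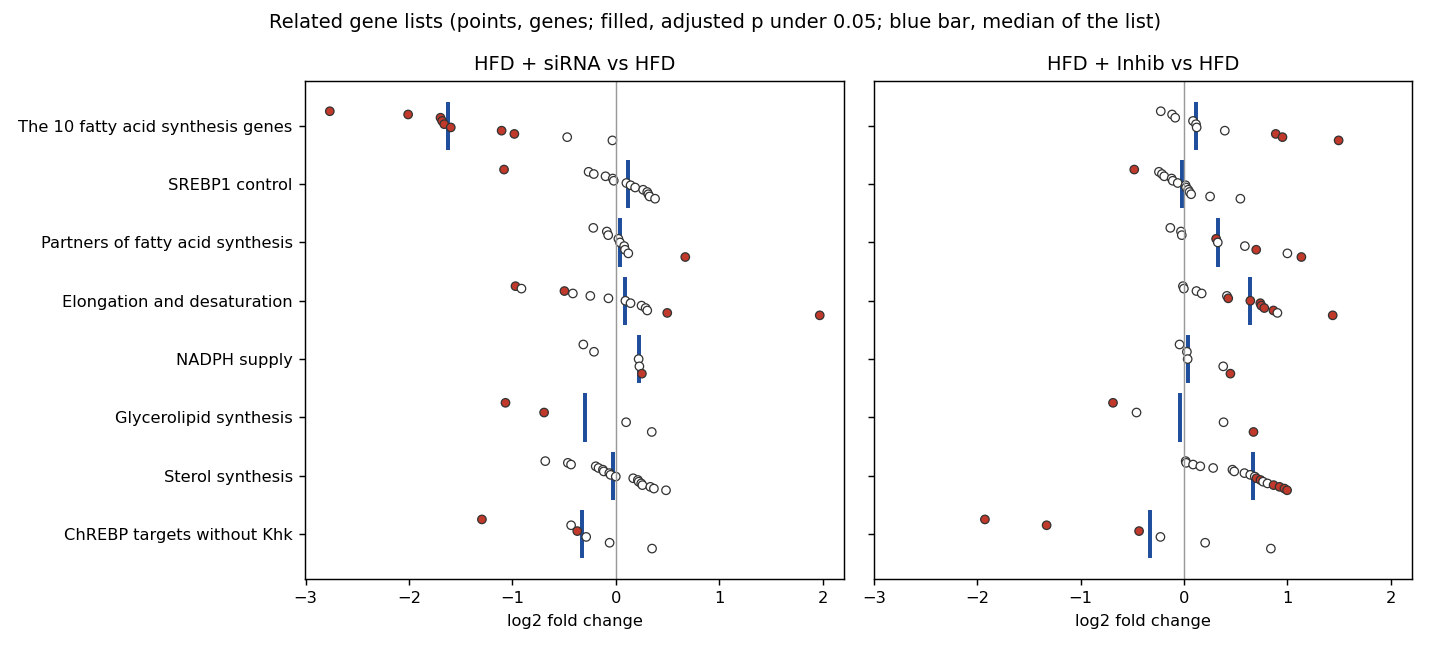
Log2 fold changes of the 10 genes and of 7 lists of related genes in HFD + siRNA versus HFD and HFD + Inhib versus HFD, without Khk. Points are genes, filled where the adjusted p is under 0.05, and blue bars are the medians of the lists. With the siRNA the median of the 10 genes is -1.63 (-1.32 without HFD replicate 2) and that of sterol synthesis -0.03 (0.20), and with the inhibitor the medians are 0.12 (0.47) and 0.66 (0.83).

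The genes whose level followed Fasn most closely over the 16 libraries, among 12400 genes outside the 10, were Lrrc28 (Pearson r = 0.94), Kidins220 (0.93), Plekha1 (0.93), Cxadr (0.92) and Ppp2r5a (0.91). Plekha1 had means of 13.8, 19.8, 8.89 and 18.7 CPM in the 4 groups, in the order LFD, HFD, siRNA and inhibitor, and Cxadr of 125, 153, 88.4 and 175 CPM. For Srebf1 they included Abcb9 (r = 0.83), Aldh1b1 (0.81), Yap1 (0.81) and Dab2ip (0.80). The points are libraries of 4 groups, and the highest of so many correlations are large by selection.

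Adipose tissue also expresses many of these genes, so its markers were read as well. Of 6 adipocyte genes, Adipoq, Lep, Plin1 and Retn had at most 21 counts in any library and were too low to test, with means of at most 0.177 CPM in every group. Of the HFD libraries, only replicate 2 had counts of Adipoq (10), Lep (21) and Plin1 (9). Cfd was the most abundant in HFD + Inhib, at 0.523 CPM for LFD, 2.59 for HFD, 7.38 with the siRNA and 34.5 with the inhibitor, and Adrb3 was at 6.99, 3.65, 6.19 and 15.2 CPM. The 6 genes summed to 7.94 ± 3.26, 6.52 ± 3.41, 13.6 ± 1.32 and 49.7 ± 19.7 CPM in the 4 groups (SD, n = 4). This sum, most of it Cfd and Adrb3, also moved with the siRNA, where the lowest library was at 12.5 CPM and the highest HFD library at 11.4 CPM. The other adipocyte genes did not move with it. Adipoq averaged 0.0642 CPM in HFD, 0.0353 with the siRNA and 0.0393 with the inhibitor. For Plin1 the means were 0.0578, 0.0160 and 0.00883 CPM. Lep and Retn were not higher in either treated group than in HFD. Neither Cfd (1.45 ± 0.56, adjusted p = 0.10) nor Adrb3 (0.76 ± 0.28, adjusted p = 0.091) passed edgeR's test with the siRNA against HFD. Without HFD replicate 2, Cfd passed there (2.58 ± 0.51, adjusted p = 0.0074, edgeR) and Adrb3 did not. Cfd and Adrb3 rose with the inhibitor against HFD, and the macrophage and stellate cell sums moved with the inhibitor too. The macrophage sum over 5 genes was 169 ± 32.1 CPM against 228 ± 22.1 in HFD, with overlap, and of the 5 Clec4f, the most abundant, and Cd5l fell, of which Clec4f still passed without HFD replicate 2 and Cd5l did not. The stellate cell sum was 262 ± 13.8 CPM against 352 ± 33.5 in HFD over 4 genes, without overlap, and of the 4 only Reln, the most abundant, fell (-0.66 ± 0.10, adjusted p = 2.5e-04, edgeR). Their part in the results was not tested.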

How the data were processed

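The values deposited by the authors are expected counts for each gene symbol in 16 liver libraries, not scaled between libraries. Per the labels and the submitters' processing notes, reads were aligned with STAR and counted with RSEM on mm39, with versions not given in the sources used here. The study's methods name HTG EdgeSeq, a probe assay, which counts whole probes, whereas 15.1% of the values are not exactly whole, so how the libraries were made is uncertain. Columns of no sample numbered 0.

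Expected counts were rounded. Genes were filtered with filterByExpr of edgeR (minimum count 10, minimum total 15), scaled by TMM (factors 0.929 to 1.09) and tested with glmQLFit and glmQLFTest in 1 fit of 16 libraries (dispersion 0.0380), with Benjamini-Hochberg adjustment and a threshold of 0.05 in 6 comparisons. R 4.3.3, edgeR 4.0.16, limma 3.58.1 and DESeq2 1.42.0 were used. Fits were tested on simulated data. A chi-square comparison of the 24 pairs within groups found no duplicate. RefSeq (GRCm38.p6) gave promoters and GENCODE M21 gave transcript length, GC content and words of 50 bases shared between genes. The build differs from mm39, so no gene positions are given from the files. Counts with a prior of 2 entered the correlations, for genes whose mean log2 CPM was 1 or more.

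The 10 genes, the lists, the tests and the alternatives were chosen with earlier results of these data known. Named genes are the 10, Khk, the 3 genes of each list with the smallest adjusted p in each comparison with LFD or HFD, markers, and the 5 genes most like Srebf1 and Fasn, and some genes that this rule names are not reported here. Alternatives were DESeq2, its size factors in edgeR, no filter, at least 10 counts in every library, a fit of only the 2 groups compared, the replicate number as a block, offsets for GC content and transcript length (15858 genes), both together, a threshold of 0.01, and leaving out each library (8 fits per comparison).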

Additional observations from a re-analysis of the deposited data

Results flagged for a closer look

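Dixon's test at 95% was run on the 4 libraries of each group for the 10 genes and Khk. In 3 of 44 gene and group combinations the gap of 1 library to its nearest neighbour exceeded the critical share of the group's range, where chance gives about 5%. For Acaca, LFD replicate 3 was low at 208 CPM (gap 0.844 of the range). For Scd1, LFD replicate 1 was high at 16079 CPM (gap 0.844 of the range). For Elovl6, HFD + siRNA replicate 2 was high at 70.2 CPM (gap 0.854 of the range), and that library still lay below all LFD and HFD libraries.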

How the results depend on the processing

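Leaving out 1 library at a time, the number of the 10 genes called was 1 to 2 in HFD versus LFD, 6 to 8 in HFD + siRNA versus HFD, 2 to 3 in HFD + Inhib versus HFD, 7 to 9 in HFD + Inhib versus HFD + siRNA, 5 to 7 in HFD + siRNA versus LFD and 2 to 3 in HFD + Inhib versus LFD. In HFD versus LFD, Elovl6 was lost and the count was 1 with the replicate block, with only the 2 groups compared and at 0.01. Of all genes tested, 18.0%, 13.4% and 7.02% were called in these 3 settings. With offsets, alone or with the block, Elovl6 was lost too (adjusted p = 0.070 and 0.085) and Fasn gained (0.032 and 0.040, edgeR). At 0.01 the count was 4 in HFD + siRNA versus LFD, beside 3.09% of all genes tested. It was 1 in HFD + Inhib versus LFD, beside 22.5%. With GC content and transcript length offsets it was 5 in HFD + Inhib versus LFD, also with the block (5), since Acacb and Fasn were added, while 29.5% of all genes tested were called with offsets and 30.2% with both, against 36.9% without, and the cause was not tested. No other alternative moved a count by over 1.5 times, although Srebf1 was called in HFD versus LFD with block and offsets together (0.64, adjusted p = 0.044 by edgeR).

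The replicate numbers were not shown to pair the samples. Deviations of same-numbered libraries correlated between -0.13 and 0.34 (6 of 24 pairs over 0.1), and 4 of 16 libraries correlated best with their own number. With the replicate block, 1, 7, 3, 8, 6 and 3 genes were called in the 6 comparisons in the order above. Of all genes tested, 18.0%, 11.3%, 18.2%, 33.8%, 8.01% and 36.4% were called with the block, in the same order. Pnpla3 in HFD + siRNA versus HFD was lost with the block (adjusted p = 0.051, and 0.0503 with offsets added, edgeR). Acly in HFD + siRNA versus LFD was lost with the block too (adjusted p = 0.052, edgeR).

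Values that changed sign were all uncalled (log2 fold changes). Me1 in HFD versus LFD was at -0.00074 with block and offsets. Fasn in HFD + Inhib versus HFD was at 0.12 with offsets and 0.18 with both. Pnpla3 there was at -0.0049 with the block. Srebf1 in HFD + Inhib versus HFD + siRNA was at 0.094 with offsets and 0.072 with both. Acaca in HFD + Inhib versus LFD was at 0.013 without a filter, 0.0126 with 10 counts in every library, 0.0058 with the block, 0.074 with offsets and 0.082 with both. With 1 library left out, Acaca (-0.068 to 0.21) and Me1 (-0.15 to 0.28) changed sign in HFD versus LFD, and Srebf1 (-0.20 to 0.11) did with the siRNA. With the inhibitor against HFD, Acly (-0.077 to 0.33), Acaca (-0.21 to 0.064), Fasn (-0.26 to 0.26), Elovl6 (-0.053 to 0.38) and Pnpla3 (-1.02 to 0.84) did. So did Srebf1 against the siRNA (-0.42 to 0.0056), and against LFD Srebf1 (-0.10 to 0.42), Acaca (-0.092 to 0.046) and Pnpla3 (-0.24 to 1.25).

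Pnpla3 rests on as few as 7 counts in a library, while the other 9 genes had at least 820 in every library. The assay, the insulin or saline injection of each mouse, and the isoforms of Srebf1 could not be separated.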
